A study of Homo sapiens with 3 samples.

Results

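The enzymes that make and break down cyclic nucleotides were followed on arrays of A549 cells transfected with either strand of pre-*miR-139*. They comprised 24 cyclic nucleotide phosphodiesterase genes (*PDE1A* to *PDE11A*, subunits of PDE6 included) and 10 adenylyl cyclase genes (*ADCY1* to *ADCY10*). Members were found through the RefSeq accession of each probe, and *PDE12* and *PDE4DIP*, which are not cyclic nucleotide phosphodiesterases, were not counted. This gave 34 of 22439 named genes, read by 42 of 31104 named probes. *PDE2A* was set against the rest of the family because the *miR-139* gene lies within it.

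A549 is an established cell line from a human lung adenocarcinoma. Total RNA came from cells given the transfection reagent only (mock) and from cells that had received *miR-139-5p* or *miR-139-3p* with it. All 3 samples received Lipofectamine RNAiMAX, and the mock cells received no miRNA. Each condition had 1 array of 1 colour, so the differences had no replicate check and no p-value could be given. The study used the arrays to look for genes whose expression was reduced by transfection. In bulk RNA, fewer cells expressing a gene and less of its RNA per cell cannot be told apart.

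Adenylyl cyclases make cyclic AMP from ATP, most of them under the control of receptors coupled to G proteins. Phosphodiesterases hydrolyse cyclic AMP, cyclic GMP or both and so end the signal. Cyclic AMP acts mainly through protein kinase A, which phosphorylates the transcription factor CREB. Several phosphodiesterase genes are themselves induced by cyclic AMP, which forms a negative feedback loop.

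The mature strands are shown because they are the molecules that were transfected and because they come from a single hairpin within *PDE2A*. Capitals mark the seed, bases 2 to 8 counted from 1 at the 5′ end. Sequences and positions are those of RefSeq on GRCh38.p14.
hsa-miR-139-5p: uCUACAGUgcacgugucuccagu
hsa-miR-139-3p: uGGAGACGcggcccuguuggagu
Both lie on the minus strand of chromosome 11, at chr11:72615102-72615124 for *miR-139-5p* and at chr11:72615066-72615088 for *miR-139-3p*. Their seeds differ, so that a site for the seed reads ACTGTAG for *miR-139-5p*, but CGTCTCC for *miR-139-3p*. Transcripts were not searched for these sites here.

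The signal is the intensity of a spot after background subtraction. For comparisons between arrays it was divided by the 75th percentile of its array, which was 93.6 for mock, 88.9 for *miR-139-5p* but 81.0 for *miR-139-3p*. A fold change is therefore not the plain ratio of the printed signals. The share of spots well above background was 49.9%, 48.1% and 53.1% on these arrays. Slide 1 held mock and *miR-139-5p*, and slide 2 held *miR-139-3p*, so that for the latter the slide and the transfection cannot be told apart. The *miR-139-3p* array also stood apart at the low end of the signal. On it, 7.91% of 1176 spots for ERCC sequences were well above background, against 2.55% with mock and 1.70% with *miR-139-5p*; its part in the results was not tested. All 6 epithelial markers (*KRT7*, *KRT8*, *KRT18*, *KRT19*, *EPCAM* and *CDH1*) were well above background on all arrays. In contrast, *NKX2-1*, *SFTPB* and *SFTPA1* of alveolar type 2 cells, *COL3A1* and *PDGFRA* of fibroblasts and *PECAM1* of endothelium were not. *PTPRC* and *CD14* of leukocytes, *COL1A1* of fibroblasts and *CDH5* of endothelium were above background on every array, and so were *SFTPC*, *SFTPA2* and *NAPSA* of alveolar type 2 cells. Some of these markers differed between arrays on the log2 scale: for *miR-139-3p* against mock, *SFTPA2* was at 2.31, *PTPRC* at 1.26, *CDH5* at 1.00, *KRT7* at -1.10 and *CD14* at -1.98, and for *miR-139-5p* *COL1A1* was at 1.41. Their part in the results was not tested. *CDKN2A*, which is deleted in A549 cells, was read by 1 probe at about background and by another at 307 with mock and 339 with *miR-139-5p*. The cause of the signal of that second probe was not tested.

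Where 3 signals are given without names, they are those of mock, of *miR-139-5p* and then of *miR-139-3p*. A gene counted as measured in a comparison where at least 1 of its probes was well above background on both arrays, and its log2 fold change was the mean over such probes. It was called higher or lower where that value was past 0.5 in either direction. On the log2 scale the median SD between probes of one protein-coding gene was 0.27 for *miR-139-3p* against mock (3331 genes) and 0.15 for *miR-139-5p* against mock (3404 genes). For a single spot of these enzymes, the scanner software gave an error of 10.2% of the signal in the median and of 21.3% at most. Neither of these errors holds the spread between cultures. The alternatives named below put 5 other scalings in place of the 75th percentile over all spots: this percentile or the median over detected probes, quantile normalization, no scaling, and scaling to the E1A spike-in probes. They also put the normexp method, which models the background and adds an offset, in place of plain background subtraction.

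Of the 34 enzymes, 22 were well above background on all 3 arrays. *PDE4C* was so with mock and with *miR-139-3p*. *PDE1B* and *PDE6A* reached this level with *miR-139-3p* only, and *ADCY5* with *miR-139-5p* only. The remaining 8 were not well above background on any array: *PDE1A*, *PDE3A*, *PDE6B*, *PDE6C*, *PDE6H*, *ADCY2*, *ADCY8* and *ADCY10*. Among them, *PDE6B*, *PDE6C* and *PDE6H* encode subunits of photoreceptor phosphodiesterase, and *ADCY10* the soluble adenylyl cyclase.

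**Figure D1:**
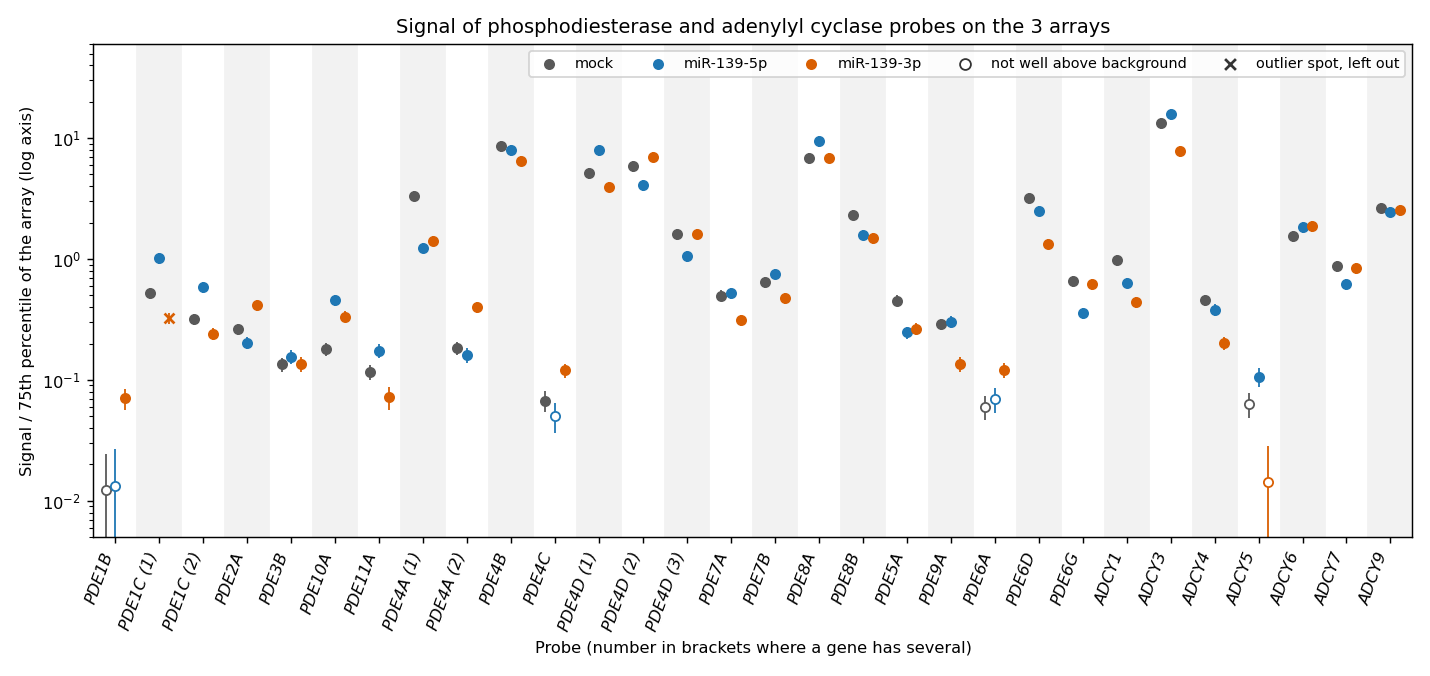
Signal of each member probe that was well above background on at least 1 array, divided by the 75th percentile of its array, on a log axis. Bars show the error given by the scanner software for the spot. The *PDE2A* point of the *miR-139-3p* array lies above and that of the *miR-139-5p* array below the mock point, and the probes of *PDE4A* and *PDE4D* do not share 1 order of the arrays.

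PDE2A is activated by cyclic GMP and hydrolyses both cyclic AMP and cyclic GMP. Its only probe (A_23_P401106) was dim, with a signal of 24.6 ± 2.69 with mock, 18.0 ± 2.14 with *miR-139-5p* and 33.9 ± 3.52 after *miR-139-3p* (error of the scanner software, 1 spot each). The highest signal was thus that of the *miR-139-3p* array and the lowest that of the *miR-139-5p* array. The log2 fold change was 0.67 ± 0.22 (error of the 2 spots) for *miR-139-3p* against mock and -0.38 ± 0.23 for *miR-139-5p* against mock, of which only the first was past the threshold. Between the transfected arrays *PDE2A* was 2.06-fold higher with *miR-139-3p* (log2 fold change 1.05 ± 0.23).

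Set against the family, *PDE2A* was the third highest of 23 measured members for *miR-139-3p* against mock and number 16 of 22 for *miR-139-5p* against mock. In the direct comparison it was the highest of the 22 measured on both arrays. Members known only by a bound or against a dim spot have no place in these orders. *PDE4C* lay above *PDE2A* in the direct comparison, at least 2.07-fold higher. *PDE6A* was 2.01-fold higher than mock with *miR-139-3p* (1.01 ± 0.39 on the log2 scale). That is a plain ratio to its dim mock spot and not a minimum. Across all measured protein-coding genes, 15.5% were higher than *PDE2A* for *miR-139-3p* against mock, 82.5% for *miR-139-5p* against mock and 8.50% between the transfected arrays. The signs were the same under all 11 alternatives that change values. With *miR-139-3p* against mock, however, the value was below the threshold with quantile normalization (0.43), without scaling (0.46), with spike-in scaling (0.47), with the deposited log2 values (0.43) and with normexp (0.27).

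Of the 23 members measured in both *miR-139-3p* and mock, 9 were lower (39.1%), 3 were higher (13.0%) and 11 were within the threshold. In all 12672 protein-coding genes measured there, 31.4% were lower and 20.6% were higher. The median log2 fold change was -0.40 for the members and -0.15 for all protein-coding genes. The choice of scaling moved the median of all genes between -0.36 and -0.02, and the members' median moved with it, since all scalings but quantile normalization shift every gene alike. The gap between the medians was smaller with normexp, where the members' median was -0.16 and that of all genes -0.08, and without the filter on dim probes, where these were -0.055 and 0.05. The split of all genes was 25.1% lower and 25.2% higher when the percentile was taken over detected probes, and 41.4% and 14.9% with spike-in scaling. All 9 lower members were lower under each of the 5 other scalings, whereas of the 3 higher ones only *PDE10A* was past the threshold under each. With quantile normalization 11 members were lower and 1 was higher, beside 32.3% and 18.4% of all genes, and with spike-in scaling 12 and 2. With normexp, 3 were lower (*ADCY1*, *ADCY3* and *PDE6D*) and 0 were higher, beside 22.5% and 9.07% of all genes, so that the members' share of lower genes was then below that of all genes.

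With *miR-139-5p* against mock, 6 of 22 members were lower (27.3%), 3 were higher (13.6%) and 13 were within the threshold. In all 12673 protein-coding genes measured there, 11.4% were lower and 10.3% were higher. The medians were -0.11 for the members and 0.00 for all genes, but without the filter on dim probes they were 0.10 and 0.09, with the members no longer below all genes. With spike-in scaling the members' median was 0.009 and that of all genes 0.12. Of the 6 lower members, *ADCY1*, *PDE4A*, *PDE5A* and *PDE6G* were lower under each of the 5 other scalings, and so were the 3 higher members on their side. With spike-in scaling, 4 members were lower and 4 were higher, beside 7.36% and 15.7% of all genes. With normexp *PDE4A* was the 1 lower and *PDE10A* the 1 higher member, beside 4.76% and 3.69%. Both comparisons use the same mock array and are therefore not independent.

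**Figure D2:**
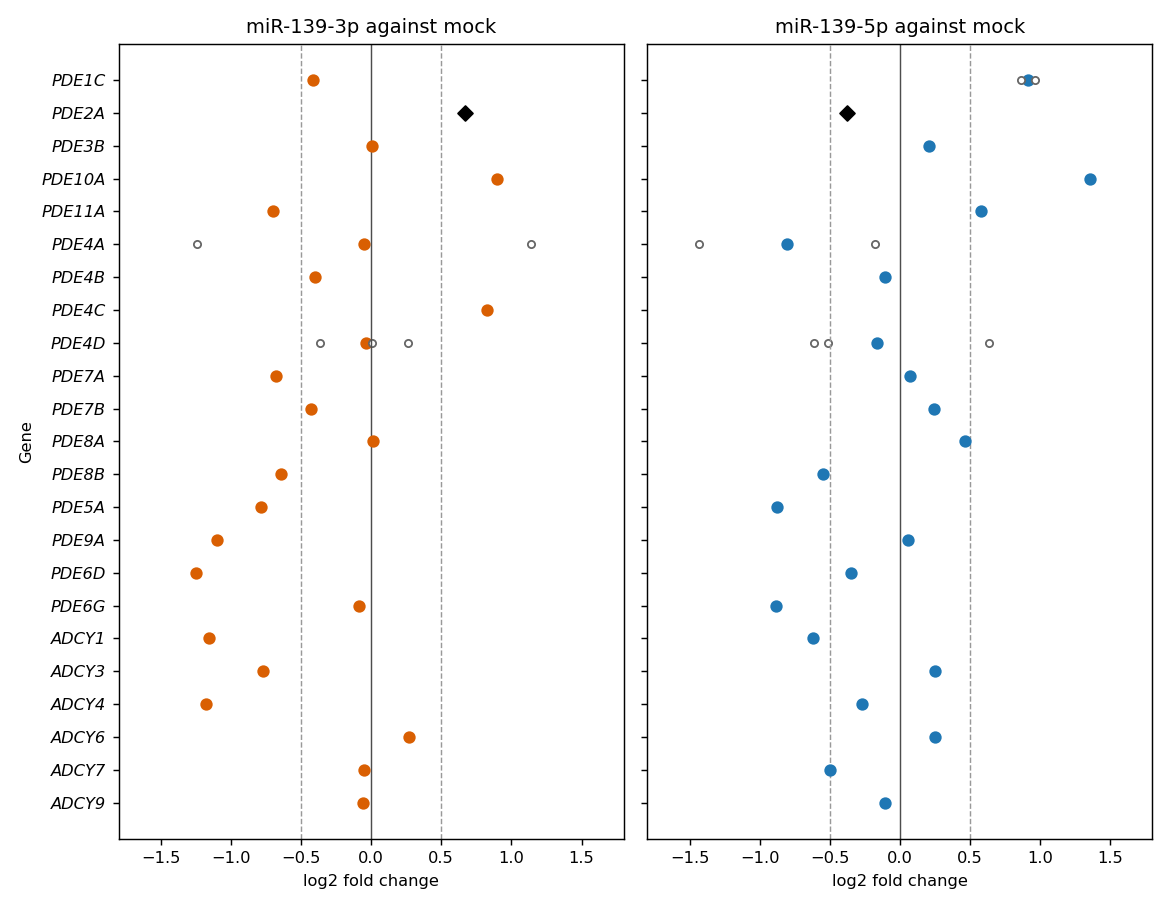
Log2 fold change of each measured member against mock, for *miR-139-3p* (left) and *miR-139-5p* (right), with dashed lines at the threshold of 0.5. Filled points are genes, open circles the single probes of genes with more than 1 measured probe, and the black diamond is *PDE2A*, at 0.67 on the left and -0.38 on the right.

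PDE10A hydrolyses both cyclic nucleotides and is best known from the striatum of the brain. Its signal was 16.8 with mock, 40.8 with *miR-139-5p* and 27.1 after *miR-139-3p*. Both transfected arrays were above mock, with log2 fold changes of 1.35 for *miR-139-5p* and of 0.90 for *miR-139-3p*. These were the highest values among members measured on both arrays of each comparison with mock. With normexp, *PDE10A* was at 0.52 for *miR-139-5p* and at 0.38 for *miR-139-3p*, the latter within the threshold. PDE11A, another enzyme of dual specificity, had signals of 10.9, 15.5 and 5.83 in the same order of arrays. It was higher with *miR-139-5p* (0.58) and lower with *miR-139-3p* (-0.70), from 1 measured probe near background; the latter value was 0.10 with normexp. *PDE3B*, which is inhibited by cyclic GMP and mediates the action of insulin on lipolysis, was within the threshold in both comparisons (0.01 for *miR-139-3p*, 0.21 for *miR-139-5p*).

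Of the PDE1 enzymes, which are activated by calcium and calmodulin, only *PDE1C* was measured against mock. One of its probes (A_33_P3331853) had a signal of 29.98 with mock, 51.8 with *miR-139-5p* and 19.4 after *miR-139-3p*. The other probe (A_24_P206328) had 48.7 with mock and 90.3 with *miR-139-5p*, and its spot on the *miR-139-3p* array was left out as an outlier. The probes gave like values for *miR-139-5p*, 0.86 and 0.97, and the gene was higher there (0.91). With *miR-139-3p* it was at -0.42, from 1 probe (-0.55 with the outlier spot kept), and *PDE1C* was 2.43-fold lower on the *miR-139-3p* array than on the *miR-139-5p* array. *PDE1B* was not well above background on the mock array, and its level with *miR-139-3p* was at least 1.37-fold higher than mock. Here and below, such a bound sets the detected signal against the higher of the dim probe's own signal and the lowest detected signal of that array. Where the dim probe's own signal was the higher, the value is a plain ratio to it and not a minimum.

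The enzymes specific for cyclic AMP (PDE4, PDE7 and PDE8) were represented by 8 genes, all of which were measured for *miR-139-3p* against mock. Here *PDE7A* and *PDE8B* were lower, *PDE4C* was higher and 5 were within the threshold. The shares, 25% lower and 12.5% higher, were below those of all protein-coding genes (31.4% and 20.6%), and with normexp none of the 3 genes was past the threshold. PDE7A is abundant in T cells and resists the inhibitor rolipram, to which the PDE4 enzymes are sensitive. The signal of *PDE7A* was 46.7 on both the mock and *miR-139-5p* arrays and 25.2 on the *miR-139-3p* array. Only the *miR-139-3p* array was low, with a log2 fold change of -0.68. *PDE8B*, which encodes an enzyme of high affinity for cyclic AMP, went from 217 on the mock array to 141 with *miR-139-5p* and 120 after *miR-139-3p* (log2 fold changes -0.55 and -0.64). Both transfected arrays were thus below mock. Its paralog *PDE8A* had signals of 639, 837 and 559 and was within the threshold in both comparisons (0.46 for *miR-139-5p*, 0.01 for *miR-139-3p*). *PDE7B* was within it as well, at 0.24 and -0.43, with the array of *miR-139-5p* above and that of *miR-139-3p* below mock.

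The PDE4 genes give rise to long and short isoforms from several promoters, and the probes of *PDE4A* and *PDE4D* went in different directions. For *PDE4A*, the probe A_24_P322474 had a signal of 312 with mock, 110 with *miR-139-5p* and 114 after *miR-139-3p*. The probe A_33_P3395876, designed on another transcript of the gene, had 17.1, 14.3 and 32.6. The first was thus low on both transfected arrays and the second high on the *miR-139-3p* array only. Their log2 fold changes were -1.24 and 1.14 for *miR-139-3p* against mock, which averaged to -0.05 for the gene. With *miR-139-5p* they were -1.43 and -0.18, and the gene was lower (-0.80). A further probe (A_23_P208334), which carries the accession of the first one, was not well above background on any array.

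*PDE4D* was read by 3 measured probes. The probe A_33_P3389653 had signals of 545, 364 and 565 in the same order, and A_33_P3389658, of the same accession, had 150, 93.3 and 131. In both, the array of *miR-139-5p* was the low one, at -0.51 and -0.61 against mock on the log2 scale. The probe A_33_P3389649, of another transcript, had 479, 705 and 321, with the *miR-139-5p* array the high one (0.63 against mock). As a gene, *PDE4D* was within the threshold in both comparisons with mock, at -0.03 for *miR-139-3p* and at -0.16 for *miR-139-5p*. *PDE4B*, an isoenzyme linked to inflammation, was within it too, with signals of 802, 707 and 525 and log2 fold changes of -0.11 for *miR-139-5p* and of -0.40 for *miR-139-3p*. *PDE4C* was close to background, at 6.32 with mock and 9.71 with *miR-139-3p* (0.83). On the remaining array it was not well above background, at least 1.17-fold below mock.

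Among the promoters of the family, those of *PDE4A* and *PDE7B* carry a full cyclic AMP response element, the palindrome TGACGTCA to which CREB binds, in the window from 250 bases before to 50 bases after an annotated start. They are shown because CREB acts downstream of the cyclic AMP that these enzymes hydrolyse. Capitals mark the element, which is its own reverse complement and so was searched on both strands at once.
PDE4A: cgtcagtccgcTGACGTCAcgccccaggag
PDE7B: actaaacccttTGACGTCActcttgaaatg
The stretch of *PDE4A* lies on the plus strand at chr19:10416759-10416788, with the element beginning 3 bases before the start. That of *PDE7B* lies on the plus strand at chr6:135851535-135851564, with the element 155 bases before the start (RefSeq, GRCh38.p14). The element was found in 2 of 74 promoters of the 27 members with an entry (2.70%) and in 649 of 35116 promoters of all genes (1.85%). Such a match is a description of the sequence and not of binding. The gene values of *PDE4A* and *PDE7B* were -0.05 and -0.43 with *miR-139-3p*, and -0.80 and 0.24 with *miR-139-5p*. The value of -0.05 averaged probes of *PDE4A* at -1.24 and 1.14.

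Both enzymes specific for cyclic GMP were lower with *miR-139-3p*, beside 31.4% of all protein-coding genes, and neither was past the threshold with normexp. PDE5A, the target of sildenafil, had a signal of 42.4 with mock, 21.96 with *miR-139-5p* and 21.4 after *miR-139-3p*. Both transfected arrays were at about the same level below mock (-0.88 with the former strand and -0.78 with the latter). PDE9A, which has a high affinity for cyclic GMP, had 27.2, 26.95 and 10.99. Only the *miR-139-3p* array was low, where *PDE9A* was 2.14-fold below mock (-1.10), while with *miR-139-5p* it was at 0.06.

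Of the PDE6 genes, those measured on all arrays do not encode catalytic subunits. PDE6D binds prenylated proteins and carries them between membranes in many cell types. Its signal was 298 with mock, 222 with *miR-139-5p* and 109 after *miR-139-3p*. *PDE6D* was 2.37-fold lower with *miR-139-3p* than with mock (-1.25), the lowest value of any member in that comparison, and within the threshold with *miR-139-5p* (-0.35). *PDE6G*, which encodes an inhibitory subunit, had signals of 61.5, 31.6 and 50.1, with the *miR-139-5p* array the low one (-0.89) and the *miR-139-3p* array at -0.09. The catalytic subunit *PDE6A* reached the level well above background with *miR-139-3p* only. There it was 2.01-fold higher than its dim mock signal, a plain ratio and not a minimum.

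Of the adenylyl cyclases, 6 of 10 were measured. With *miR-139-3p*, 3 were lower than mock and 0 were higher, beside 31.4% lower and 20.6% higher in all protein-coding genes, and the median was -0.42. With *miR-139-5p*, 2 were lower and 0 were higher, beside 11.4% and 10.3% in all genes, and the median was -0.19. With normexp, *ADCY1* and *ADCY3* were the lower ones for *miR-139-3p* and none was past the threshold for *miR-139-5p*. ADCY3, known from olfactory cilia and from body weight regulation, had a signal of 1248 ± 125 with mock, 1407 ± 141 with *miR-139-5p* and 633 ± 63.3 after *miR-139-3p*. Only the *miR-139-3p* array was low, with -0.77 against mock and -1.02 against *miR-139-5p*.

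ADCY1, an isoform stimulated by calcium and calmodulin, had signals of 91.7 ± 9.23, 56.7 ± 5.79 and 35.6 ± 3.69. Here both transfected arrays were low, and *ADCY1* was 2.23-fold below mock with *miR-139-3p* (-1.16) and 1.54-fold below with *miR-139-5p* (-0.62). *ADCY4*, of a group of isoforms stimulated by G protein βγ subunits, had 42.9 ± 4.43, 33.8 ± 3.63 and 16.4 ± 1.98, at -1.17 for *miR-139-3p* and at -0.27 for *miR-139-5p*. This came from 1 of its probes (A_33_P3337161), the other (A_23_P381261) not being well above background on any array.

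The other isoforms gave smaller values. *ADCY7*, of the same group as *ADCY4*, had signals of 81.6, 54.7 and 68.2, which put it at -0.50 for *miR-139-5p*, only just past the threshold, and at -0.05 for *miR-139-3p*. With quantile normalization or spike-in scaling it was no longer past it. *ADCY6*, which is inhibited by calcium, had 145, 163 and 151 and was within the threshold at 0.27 for *miR-139-3p* and at 0.25 for *miR-139-5p*. *ADCY9*, the isoform least sensitive to forskolin, had 247, 218 and 205 and was at -0.06 and -0.11. *ADCY5*, also inhibited by calcium, was well above background with *miR-139-5p* only. There it was 1.68-fold higher than its dim mock signal, a plain ratio and not a minimum.

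**Figure D3:**
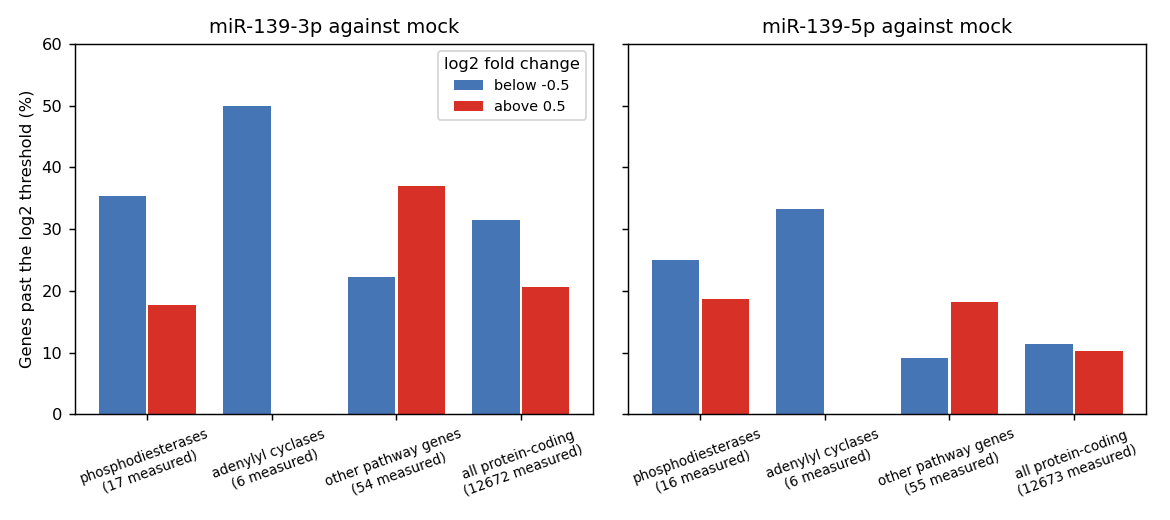
Percent of measured genes with a log2 fold change against mock below -0.5 (blue) or above 0.5 (red), for *miR-139-3p* (left) and *miR-139-5p* (right). For *miR-139-3p*, 35.3% of phosphodiesterases and 3 of 6 adenylyl cyclases were lower, against 31.4% of all protein-coding genes, and of the other pathway genes 37.0% were higher and 22.2% lower.

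The transfected arrays were also compared with each other. Of 22 members measured on both, 9 were lower with *miR-139-3p* (40.9%) and 3 were higher (13.6%), against 31.8% and 20.1% of all 12406 protein-coding genes. The medians were -0.37 and -0.16, with normexp they were -0.14 and -0.09, and without the filter on dim probes they were nearly equal at -0.12 and -0.11. The lower members were *PDE1C*, *PDE6D*, *PDE7A*, *PDE7B*, *PDE9A*, *PDE11A*, *ADCY1*, *ADCY3* and *ADCY4*, ranging from -1.28 for *PDE1C* to -0.54 for *ADCY1*. The higher members were *PDE2A* (1.05), *PDE6G* (0.80) and *PDE4A* (0.76). Of these 3, only *PDE2A* was past the threshold under each of the 5 other scalings, and none was so with normexp. The value of *PDE4A* averaged 2 probes, the brighter at 0.19 and the dimmer at 1.32. With the brightest probe alone it was within the threshold. Another 4 members were well above background on only 1 of these arrays. Of them, *ADCY5* was at least 1.998-fold lower with *miR-139-3p*, while *PDE4C* was at least 2.07-fold and *PDE1B* at least 1.22-fold higher. *PDE6A* was 1.75-fold higher, a plain ratio to its dim *miR-139-5p* signal and not a minimum. With spike-in scaling 13 members were lower and 1 was higher, beside 48.2% and 12.7% of all genes.

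The pathway on either side of these enzymes was described with 83 genes in 12 roles. Of 54 measured for *miR-139-3p* against mock, 12 were lower (22.2%), 20 were higher (37.0%) and the median was 0.22, beside 31.4% lower and 20.6% higher in all protein-coding genes. Without scaling, and likewise with spike-in scaling, every gene shifted downward alike, and the counts were 19 lower and 14 higher, beside 42.3% and 14.5% of all genes without scaling and 41.4% and 14.9% with spike-in scaling. With normexp they were 5 and 7, beside 22.5% and 9.07%. Of 55 measured for *miR-139-5p* against mock, 5 were lower (9.09%), 10 were higher (18.2%) and the median was 0.07, beside 11.4% and 10.3% in all genes. Among the highest measured values for *miR-139-3p* was that of *NR4A2* (1.66), an orphan nuclear receptor gene induced through CREB. It was a mean over 2 probes with an SD between them of 0.96, and their mean signals were 28.9 with mock and 71.0 with *miR-139-3p*. The lowest measured value was that of *ADORA2B* (550 and 93.4, -2.35), an adenosine receptor that stimulates adenylyl cyclase. Next came *NPR3* (162 and 32.3, -2.27), the clearance receptor of natriuretic peptides. Bounds lay farther out on both sides, at -3.17 or lower for *PTGER4*, a prostaglandin E2 receptor (44.9 with mock), and at 2.43 or higher for *NR4A1*, a relative of *NR4A2* (22.5 with *miR-139-3p*).

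Upstream of the cyclases, 4 of 7 G protein subunits were above the threshold with *miR-139-3p* and 0 below it (median 0.59), beside 20.6% of all protein-coding genes above it. Only *GNAL* was past the threshold under all 11 alternatives that change values, while *GNAI3* and *GNAZ* were not so without scaling or with spike-in scaling, nor *GNAO1* with normexp or quantile normalization. *GNAI3* was within it with normexp and with the brightest probe too. *GNAO1* was close to background, at 7.33 with mock and 10.8 with *miR-139-3p*. Downstream, the regulatory subunits of protein kinase A *PRKAR2A* (-1.17) and *PRKAR2B* (-1.12) were lower, and 1 of its 6 measured subunits, *PRKAR1A* (0.61), was higher, beside 31.4% lower and 20.6% higher in all protein-coding genes. With normexp all 3 were within the threshold, at -0.25, -0.41 and 0.38, and *PRKAR1A* was so without scaling and with spike-in scaling too. Its inhibitors were at 1.32 for *PKIA*, -0.47 for *PKIG* and -1.66 for *PKIB*. Of the other effectors of cyclic AMP, *RAPGEF3*, which encodes the exchange factor EPAC1, was at 1.38 and *POPDC2* at 1.02, while *POPDC3* was at -0.48. The transporter genes that export cyclic nucleotides were at 0.60 for *ABCC5* and -0.41 for *ABCC4*. With normexp none of these was past the threshold, with *PKIA* at 0.42, *PKIB* at -0.34, *RAPGEF3* at 0.49, *POPDC2* at 0.28 and *ABCC5* at 0.37.

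CREB and its coactivators gave 3 lower and 1 higher of 8 measured genes with *miR-139-3p*, and 1 lower and 0 higher with *miR-139-5p*. In all protein-coding genes, 31.4% and 11.4% were lower in these comparisons. With normexp none of the genes counted here was past the threshold, and the value of *CREM*, one of the 3 lower genes (-0.76), was 0.07 with the brightest probe. Among genes induced through CREB, 4 of 6 measured were higher and 0 were lower in each comparison, with medians of 0.75 for *miR-139-3p* and of 0.80 for *miR-139-5p*, beside 20.6% and 10.3% higher in all protein-coding genes. With normexp, *PER1* and *NR4A3* were no longer past the threshold for *miR-139-3p*. The highest measured pathway values for *miR-139-5p* were those of *NR4A2* (1.44, with an SD of 0.77 between 2 probes) and *NR4A3* (1.19), both of this role. Its lowest were those of *PRKAR1B* (-1.03), a regulatory subunit of protein kinase A, and *CRTC1* (-0.74), a coactivator of CREB, and neither was past the threshold with normexp. On the cyclic GMP side, none of the 6 guanylyl cyclase genes other than the natriuretic peptide receptors was well above background on any array. The receptors *NPR1* and *NPR2* were both at 0.90 with *miR-139-3p*, where *NPR1* was at 0.27 with normexp.

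**Figure D4:**
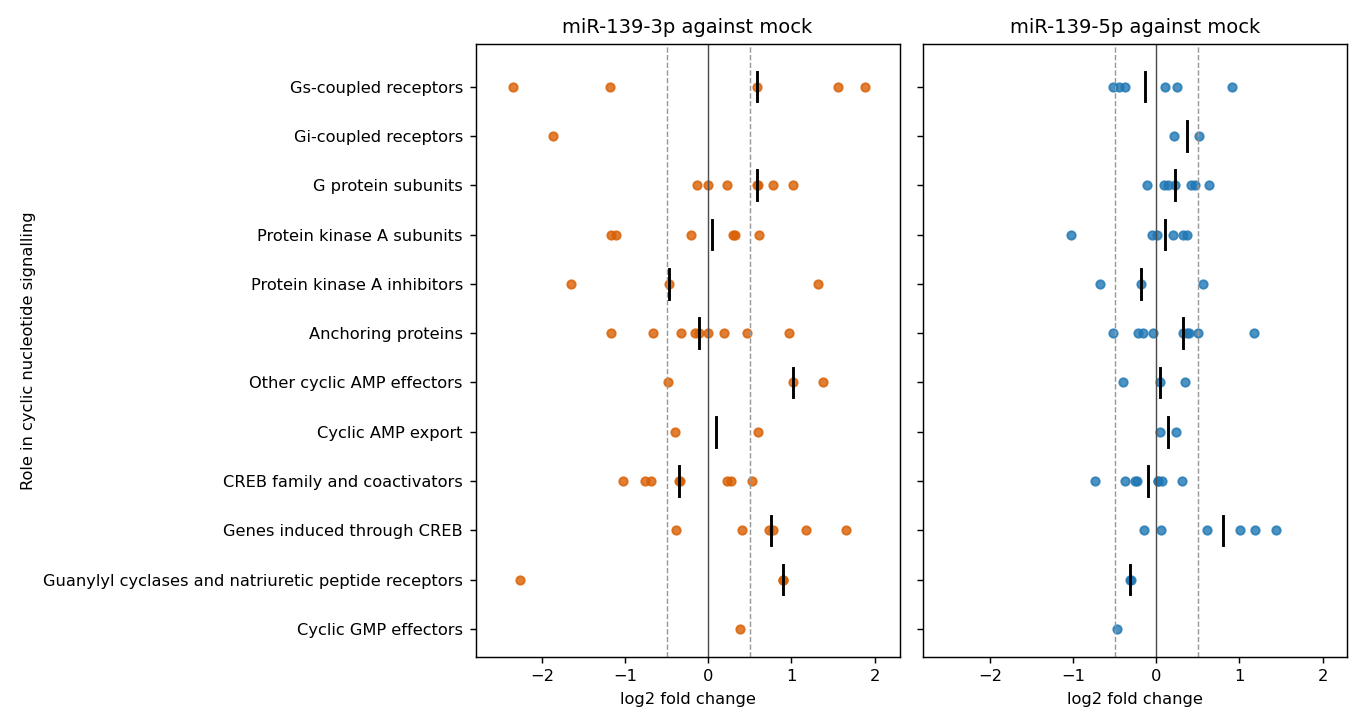
Log2 fold change against mock of each measured pathway gene, by role, for *miR-139-3p* (left) and *miR-139-5p* (right); black bars are the medians and dashed lines the threshold of 0.5. The medians of genes induced through CREB lie at 0.75 and 0.80, and those of G protein subunits at 0.59 and 0.22.

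The 8 protein-coding genes around *PDE2A* on chromosome 11 were described to set the host gene against its surroundings. In RefSeq order they were *FOLR2*, *INPPL1*, *PHOX2A* and *CLPB* on one side and *ARAP1*, *STARD10*, *ATG16L2* and *FCHSD2* on the other, and *PHOX2A* was not well above background. For *miR-139-3p* against mock, *FOLR2* (0.84) and *ATG16L2* (0.52) were higher and *INPPL1* (-0.75) was lower among 7 measured neighbours. Only *INPPL1* was past the threshold under all alternatives that change values: *ATG16L2* was not so with normexp, median scaling, no scaling or spike-in scaling, nor *FOLR2* with normexp, quantile normalization, the deposited log2 values or no filter on dim probes. Next to *PDE2A* at 0.67, *CLPB* was at -0.31 and *ARAP1* at 0.17, and farther away *STARD10* was at 0.43 and *FCHSD2* at -0.38. For *miR-139-5p* against mock, *FOLR2* (0.59) was higher, *ARAP1* (-0.60) was lower and the others lay between -0.22 for *INPPL1* and 0.21 for *FCHSD2*. With normexp, neither *FOLR2* nor *ARAP1* was past the threshold there. *FOLR2* was dim and its values came from a different probe in each comparison. The neighbours' medians were 0.17 and -0.13.

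**Figure D5:**
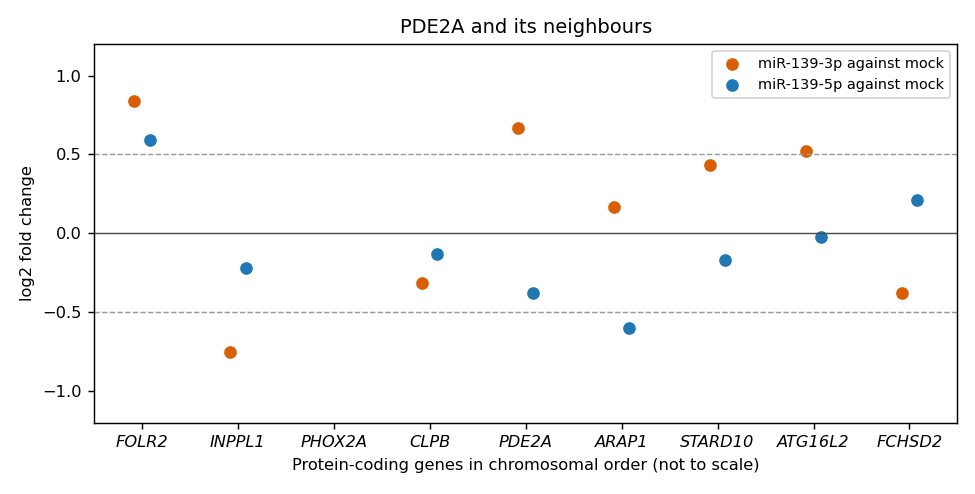
Log2 fold change against mock of *PDE2A* and of its 4 protein-coding neighbours on each side, in chromosomal order, for *miR-139-3p* (orange) and *miR-139-5p* (blue), with dashed lines at the threshold of 0.5. The 7 measured neighbours lie on both sides of 0 for either miRNA, between -0.75 and 0.84 for *miR-139-3p*, and *PHOX2A* has no point because it was not measured.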

How the data were processed

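Arrays of 1 colour were read by the authors with Agilent Feature Extraction 12.1.1.1 (per the file headers), and the deposited intensity of each spot is the background-subtracted processed signal, not normalized between arrays. The deposited log2 values are the quantile-normalized log2 signals, as found by setting them against the spots (r of at least 0.99997 on each array, column medians of 2.21), and were used as an alternative. The members and the gene lists were chosen with earlier results of these data known.

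Each intensity was divided by its array's 75th percentile, taken without control spots, and put on the log2 scale. Spots flagged as outliers by the scanner software, 614 for mock and 935 for *miR-139-5p* but 1526 for *miR-139-3p*, were not used. A probe was well above background where at least 50% of its spots were; of 60901 spots, 0 were saturated on any array. Probes were named from their RefSeq accession through the GRCh38.p14 annotation, with 24751 of 25277 NM accessions matched, and no gene positions of that build are given for probes. The study's methods give no test for the arrays. The 12 alternatives changed the background correction, scaling, filter on dim probes, probe taken for a gene, outlier spots, threshold or source of values. Every member is accounted for; of the pathway, the 2 highest and 2 lowest genes of a comparison and genes of roles with 3 or fewer measured genes were to be named. A gene that this rule names and a marker gene are not reported here. All 8 neighbours of *PDE2A* are given. The G protein subunits named, *PER1*, *PTGER4*, *NR4A1*, *CREM*, *PRKAR1A*, *PRKAR2A* and *PRKAR2B* were chosen after their values were seen. With 1 array per condition, the number of arrays limits what can be said. The steps were tested on simulated data. Python 3.11.15, numpy 2.4.6, pandas 2.3.3 and matplotlib 3.10.9 were used, and normexp was run with an offset of 50 in limma 3.58.1 (R 4.3.3).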

Additional observations from a re-analysis of the deposited data

How the results depend on the processing

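Of 921 values of single members other than *PDE2A* and of its neighbours, under the 11 alternatives that change values, 804 moved by less than the spread between probes and 115 by more, and 2 values past the threshold changed sign: *PDE11A* for *miR-139-3p* against mock was 0.10 with the normexp background correction, and *FOLR2* for *miR-139-5p* against mock was -0.24 without the filter on dim probes. Of the pathway genes past the threshold, *CREM* changed sign with the brightest probe, to 0.07 for *miR-139-3p* against mock and 0.12 between the transfected arrays. The normexp correction adds an offset of 50 to every signal and so draws the log2 fold changes of dim probes toward 0. It left 3 lower and 0 higher members for *miR-139-3p* against mock, beside 22.5% and 9.07% of all genes. For *miR-139-5p* against mock it left 1 and 1, beside 4.76% and 3.69%. Between the transfected arrays it left 3 and 0, beside 22.3% and 9.72%. With normexp, the pathway gave 5 lower and 7 higher genes for *miR-139-3p* and 1 and 6 for *miR-139-5p*, beside the same shares of all genes. *PDE2A* was then at 0.27, -0.18 and 0.45 in the 3 comparisons. At a threshold of 1, the members gave 4 lower and 0 higher, 0 and 1, and 4 and 1 in these comparisons. The pathway gave 9 lower and 8 higher for *miR-139-3p* and 1 lower and 4 higher for *miR-139-5p*. The share of all genes past 1 was not taken, so these counts cannot be read against it. Quantile normalization and the deposited log2 values each left 1 higher member for *miR-139-3p* against mock, beside 18.4% and 18.3% of all genes. *PDE2A* was then at 0.75 and 0.76 between the transfected arrays. Without scaling, and with spike-in scaling too, 19 pathway genes were lower and 14 were higher for *miR-139-3p*. Of all genes, 42.3% and 14.5% were so without scaling, and 41.4% and 14.9% with spike-in scaling. Spike-in scaling gave 3 lower pathway genes for *miR-139-5p*, beside 7.36% of all genes. Between the transfected arrays it gave 1 higher member, beside 12.7% of all genes, with *PDE2A* at 0.73. The medians there were -0.68 for the members and -0.13 for the neighbours. Without the filter on dim probes, 5 members were higher for *miR-139-3p* against mock and 6 between the transfected arrays, beside 23.2% and 22.5% of all genes. The members' medians were then -0.055 and 0.10 against mock, beside 0.05 and 0.09 for all genes. Taking the brightest probe of a gene left 3 lower pathway genes for *miR-139-5p*, beside 11.2% of all genes. The causes of these shifts were not tested beyond the construction named. No paired analysis was possible because each condition had 1 array, and for the same reason no array could be left out. *PDE2A*, *PDE3B*, *PDE4C*, *PDE9A*, *PDE10A*, *PDE11A* and *FOLR2* are among the genes that rest on dim probes. *PDE5A* and *ADCY4* were dim with *miR-139-3p* too.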

Other observations

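Several genes with names close to the family were read by the same arrays and are given as values only. *PDE12*, which encodes a mitochondrial enzyme that removes poly(A) tails, had a signal of 235 with mock, 223 with *miR-139-5p* and 179 after *miR-139-3p*, within the threshold in both comparisons (-0.18 for *miR-139-3p*). *PDE4DIP*, which encodes a protein of the Golgi and centrosome that interacts with PDE4D, was at -0.20 (*miR-139-3p*) and 0.57 (*miR-139-5p*) against mock, from 3 of its 11 probes, with SDs between probes of 0.75 and 0.93. The antisense RNA *PDE4B-AS1* was dim and at 0.66 for *miR-139-3p* against mock, where *PDE4B* was at -0.40. *ADCYAP1R1*, the receptor of the peptide PACAP, was detected with *miR-139-3p* only, with a lower bound of 0.93 on the log2 scale against mock.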
